A study of Mus musculus with 12 samples.

Results

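Heme is built in a short chain of enzymes that begins in the mitochondrion, runs through the cytosol and ends in the mitochondrion again. The first step, the joining of glycine and succinyl-CoA into 5-aminolevulinate (ALA), is carried out by ALAS1 in cells at large and by ALAS2 in the red cell lineage, where heme is needed for hemoglobin. The genes described here are the 9 named heme synthesis genes Alas1, Alas2, Slc25a38, Alad, Uros, Urod, Cpox, Ppox and Fech. They are the members of the pathway by name, listed with earlier results of these data known, and are 9 of the 31272 gene names in the files. Each of them stood on a single row and passed the filter of at least 1 FPKM in at least 3 fitted libraries.

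RNA was sequenced from bone marrow cells of wild-type mice sorted as hematopoietic stem cells (HSCs), in 12 libraries that formed 4 groups of 3. Ctrl mice carried the treatment label Ctrl, IR mice received ionizing radiation, and Ab_IR and L_IR mice have the letters Ab or L before IR in their treatment label, which no label spells out. Sorting took place 3 days after irradiation per the labels, which give the same sentence for Ctrl. The labels give no age, strain or sex and do not say whether libraries of a group came from separate animals, so p-values measure the spread between these libraries, which may be technical. Per the study's methods, irradiation was a single sublethal total body exposure, and HSCs were gated as lineage-negative, Sca-1-positive, c-Kit-positive, Flt3-negative and CD34-negative cells, with the red cell antigen Ter-119 in the lineage mix.

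The HSC marker genes gave a mixed picture. Ly6a, which encodes the Sca-1 of the gate, lay between 25.9 and 61.5 FPKM in all 12 libraries, Gata2 between 4.89 and 17.2 FPKM and Hlf between 1.14 and 2.4 FPKM. No library reached 1 FPKM for 5 of 16 HSC marker genes, such as Hoxb5 (highest value 0.07 FPKM), Fgd5 (0.22 FPKM) and Mecom (0.25 FPKM). Kit ranged from 6.7 to 25.45 FPKM. Flt3 and Cd34, whose products the gate excludes, ranged from 0.96 to 12.1 and from 3.66 to 20.65 FPKM. The 23 measured red cell markers were above 0 in at least 1 library each, and their sum lay between 731 and 4949 FPKM per library. In such bulk samples, fewer cells of a type and less RNA per cell cannot be told apart, and this holds for every result below. Ctrl replicate 1 also stood apart, with 44.1% of its rows at 0, where the other libraries had 24.7% to 27.3%. The heart transcript Nppa was found in the 3 IR libraries and Ctrl replicates 2 and 3 (51.2 to 63.9 FPKM) but hardly in the other 7 (0.26 FPKM at most), a split that runs between IR and the groups Ab_IR and L_IR.

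Stretches of DNA in front of some of the genes are shown first, since Alas1 and Alas2 catalyse the same reaction but moved in different directions. They come from the RefSeq table of promoters (GRCm38.p6), in which 8 of the 9 genes were found, Fech being the exception. Shown are the genes with a match to the GATA or NRF1 letters given below. Slc25a38, Alad, Urod and Ppox had neither match and are not shown. All are printed 5′ to 3′ along the strand of the gene. For Alas2 and Cpox the bases before the annotated transcripts are given in full, at chrX:150547167-150547374 (plus strand) and chr16:58669958-58670207 (plus strand). For Alas1 and Uros, where the matches lie within annotated transcripts, 30 bases around them are given, at chr9:106247906-106247935 and chr7:133702551-133702580 (both minus strand). Capitals mark the letters GATAA in either orientation, the core recognised by GATA factors, and for Alas1 a pair of overlapping matches to GCATGCGC, the core recognised by NRF1.
Alas2: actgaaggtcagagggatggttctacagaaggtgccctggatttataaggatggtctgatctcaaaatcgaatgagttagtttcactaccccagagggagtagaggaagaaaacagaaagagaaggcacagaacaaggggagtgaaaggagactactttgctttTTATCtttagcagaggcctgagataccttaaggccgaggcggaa
Cpox: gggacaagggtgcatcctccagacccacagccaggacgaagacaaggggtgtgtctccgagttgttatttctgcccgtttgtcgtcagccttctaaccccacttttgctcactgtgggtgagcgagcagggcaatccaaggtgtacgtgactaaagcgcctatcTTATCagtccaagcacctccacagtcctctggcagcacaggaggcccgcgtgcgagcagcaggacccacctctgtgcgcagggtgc
Uros: tctccctcagccTTATCagtgacagagggc
Alas1: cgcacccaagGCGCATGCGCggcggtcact

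Within 250 bases before a RefSeq start, GATAA was found for 3 of the 8 genes, namely Alas2 and Cpox, where it began 86 bases before the start in both, and the downstream start of Uros, where it began 68 bases before it. Of all 27025 genes in the table, 25.5% held it in at least 1 window, and so did 12 of the 16 red cell marker genes found there. The NRF1 letters were found for Alas1 alone, 195 and 193 bases before its downstream start, in 2.56% of all genes and in 0 of the 16 red cell marker genes. The remaining motif, the CACC box CCNCNCCC, was found for 5 of the 8 genes, 48.5% of all genes and 7 of the 16 red cell marker genes. Its matches within a window partly overlapped each other, those of the other motifs did not overlap it, and both strands were searched throughout. The motifs were picked with the expression values known, and a match of letters describes the window only.

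The first question was how irradiation left the pathway. In IR compared with Ctrl, 8 of the 9 genes were lower and Alas1 was higher at an adjusted p under 0.05, while 25.5% of the 12072 genes tested were lower and 17.5% higher. Of the 9, 7 also fell by more than 1 on the log2(FPKM + 1) scale, against 4.57% of all genes tested. The median of the 9 differences was -1.27 on that scale, beside -0.05 over all genes tested. No Ctrl library overlapped with an IR library for any of the 9, which was so for 58.1% of all genes. All adjusted p-values are from limma with Benjamini-Hochberg adjustment over all genes tested, and differences on the log2(FPKM + 1) scale understate the change of genes at low levels.

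**Figure D1:**
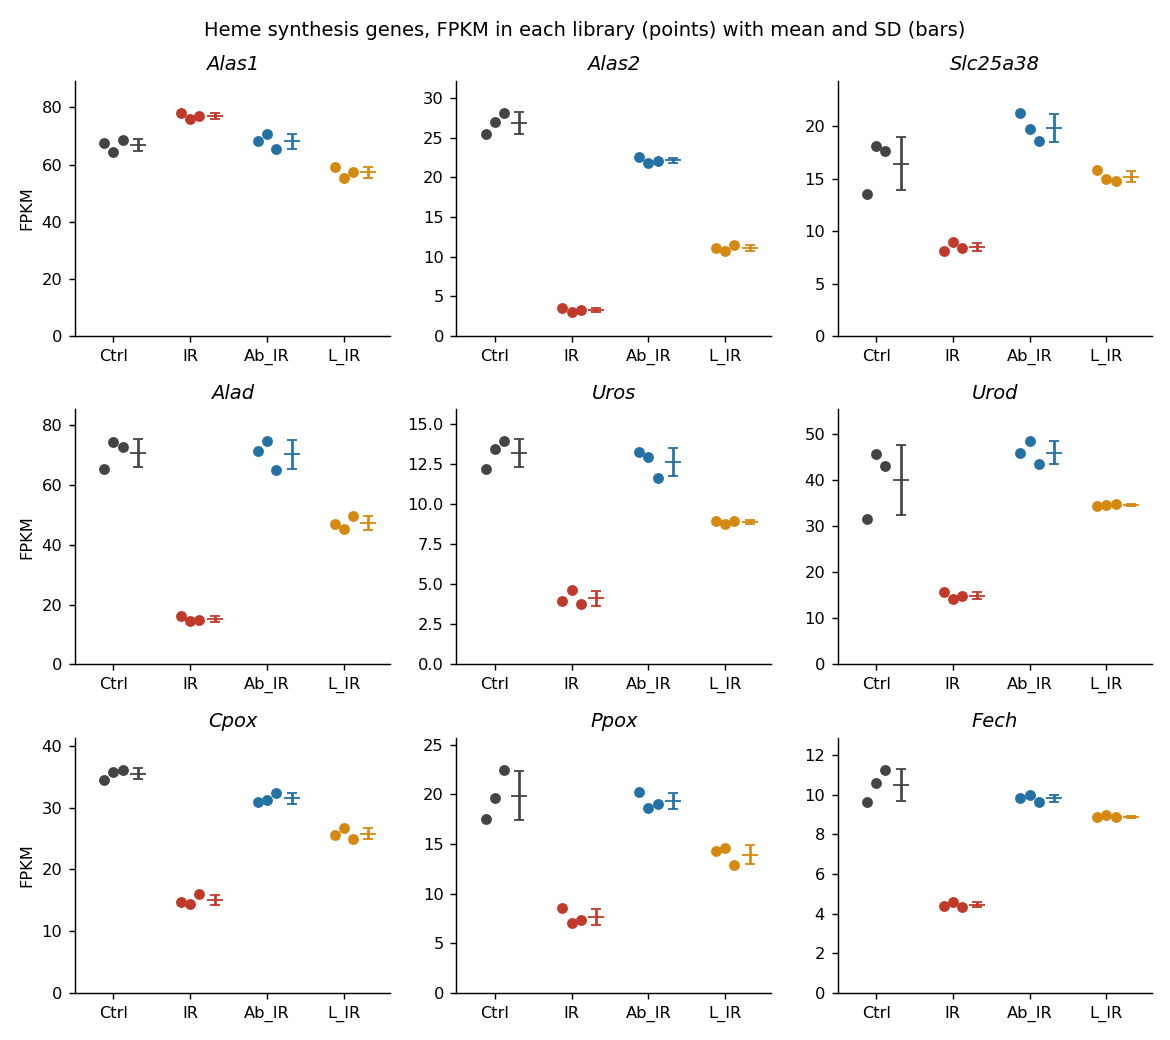
FPKM of the 9 heme synthesis genes (vertical axes, each starting at 0) in the 3 libraries of Ctrl, IR, Ab_IR and L_IR (points), with the mean and SD of each group beside them. The 3 IR libraries are the lowest for every gene except Alas1, where they are the highest.

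Alas2, the red cell ALA synthase (ENSMUSG00000025270, chrX:150547375-150570638, plus strand), changed the most. It was measured at 25.4, 27.0 and 28.1 FPKM in Ctrl and at 3.55, 3.02 and 3.32 FPKM in IR. Every IR library was thus far under every Ctrl library, the means differing 8.14-fold. The difference was -2.70 ± 0.08 (SE, n = 3 and 3, limma adjusted p = 6.39e-06), ranking 26 from the lowest of the 12072 genes tested. In Ab_IR the values returned to 22.5, 21.8 and 22.03 FPKM. In L_IR they were 11.1, 10.7 and 11.5 FPKM, between IR and Ab_IR and overlapping with neither.

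Alas1, the ALA synthase of most tissues (ENSMUSG00000032786, chr9:106233455-106248654, minus strand), stood at 67.6, 64.5 and 68.4 FPKM in Ctrl and at 78.1, 75.9 and 76.9 FPKM in IR. IR was therefore the highest group, 1.15-fold above Ctrl by the means. The difference of 0.20 ± 0.06 (SE, n = 3 and 3) had a limma adjusted p of 0.0279, which rose to 0.126, 0.101 and 0.116 without IR replicate 1, 2 or 3 and was 0.00705 without Ctrl replicate 1. It rose to 0.0763 after scaling libraries to their median ratio. Ab_IR, at 68.2, 70.7 and 65.5 FPKM, overlapped with Ctrl. L_IR was the lowest group, at 59.1, 55.25 and 57.4 FPKM.

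As both genes encode the same activity and FPKM are per length, their levels can be set side by side. Alas2 made up 27.3% to 29.5% of the summed Alas1 and Alas2 FPKM in Ctrl libraries and 3.83% to 4.35% in IR libraries. In Ab_IR the share was 23.6% to 25.2%, just under the Ctrl range, and in L_IR 15.8% to 16.7%. The sum itself moved less, from 91.5 to 96.55 FPKM in Ctrl to 78.9 to 81.6 FPKM in IR, and it was lowest in L_IR at 65.9 to 70.2 FPKM. These shares are descriptions without a test.

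Slc25a38, a mitochondrial carrier that brings in glycine for the first step (ENSMUSG00000032519, chr9:120110374-120124504, plus strand), measured 13.5, 18.1 and 17.7 FPKM in Ctrl against 8.13, 8.93 and 8.41 FPKM in IR. It was the least reduced of the 8 genes, at -0.87 ± 0.12 (SE, n = 3 and 3, limma adjusted p = 0.00181). Ctrl replicate 1 was the low Ctrl library, and without it the difference was -0.99. Ab_IR libraries read 21.3, 19.7 and 18.6 FPKM, all above Ctrl, and L_IR libraries 15.8, 14.98 and 14.8 FPKM, within the Ctrl range.

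Alad, which joins ALA molecules into porphobilinogen in the cytosol (ENSMUSG00000028393, chr4:62509169-62519918, minus strand), was the most abundant member in Ctrl together with Alas1, at 65.3, 74.35 and 72.7 FPKM. In IR it was 16.3, 14.6 and 14.8 FPKM, which is 4.65-fold lower by the means and the second largest fall among the 9 (-2.15 ± 0.08, SE, n = 3 and 3, limma adjusted p = 1.58e-05). Ab_IR libraries, at 71.3, 74.7 and 65.0 FPKM, overlapped with Ctrl. L_IR libraries were lower than both, at 47.0, 45.4 and 49.85 FPKM.

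Uros, which closes the tetrapyrrole ring (ENSMUSG00000030979, chr7:133686243-133710072, minus strand), read 12.2, 13.4 and 13.9 FPKM in Ctrl and 3.96, 4.63 and 3.74 FPKM in IR. Its difference was -1.47 ± 0.09 (SE, n = 3 and 3, limma adjusted p = 8.83e-05). Ab_IR stood at 13.3, 12.9 and 11.6 FPKM and overlapped with Ctrl, while L_IR stood between IR and Ctrl at 8.95, 8.75 and 8.95 FPKM.

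Urod, which decarboxylates the ring to coproporphyrinogen (ENSMUSG00000028684, chr4:116989965-116994413, minus strand), was the member with the widest Ctrl spread, at 31.5, 45.65 and 42.9 FPKM, the low value again being replicate 1. IR libraries read 15.8, 14.2 and 14.8 FPKM. The difference was -1.35 ± 0.14 (SE, n = 3 and 3, limma adjusted p = 6.83e-04), and -1.51 without Ctrl replicate 1. Ab_IR read 45.8, 48.3 and 43.4 FPKM and L_IR 34.4, 34.5 and 34.9 FPKM, both overlapping with the Ctrl range.

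Cpox, the oxidase that returns the pathway to the mitochondrion (ENSMUSG00000022742, chr16:58670292-58717636, plus strand), read 34.5, 35.8 and 36.1 FPKM in Ctrl and 14.7, 14.4 and 16 FPKM in IR (-1.19 ± 0.06, SE, n = 3 and 3, limma adjusted p = 5.27e-05). Unlike Alad and Urod, it stayed under every Ctrl library in Ab_IR, at 30.9, 31.2 and 32.4 FPKM. In L_IR it was 25.6, 26.8 and 24.9 FPKM.

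Ppox, which forms protoporphyrin IX (ENSMUSG00000062729, chr1:171275990-171281186, minus strand), read 17.5, 19.65 and 22.5 FPKM in Ctrl and 8.59, 7 and 7.36 FPKM in IR (-1.27 ± 0.11, SE, n = 3 and 3, limma adjusted p = 3.56e-04). Ab_IR overlapped with Ctrl at 20.2, 18.65 and 19.0 FPKM. L_IR lay between, at 14.3, 14.6 and 12.85 FPKM.

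Fech, the ferrochelatase that inserts iron into the finished ring (ENSMUSG00000024588), was the lowest member in Ctrl, at 9.64, 10.6 and 11.25 FPKM. It was 4.4, 4.6 and 4.35 FPKM in IR (-1.08 ± 0.08, SE, n = 3 and 3, limma adjusted p = 1.43e-04). Ab_IR reached 9.82, 10 and 9.65 FPKM, overlapping with Ctrl. In L_IR the libraries were almost identical, at 8.87, 8.95 and 8.86 FPKM, below Ctrl by little.

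The fall left the pathway with another order of levels. In Ctrl the mean levels descended from Alad and Alas1, whose ranges overlapped, through Urod and Cpox, which also overlapped, to Alas2, Ppox, Slc25a38, Uros and Fech. In IR Alas1 stood alone at the top at a mean of 77.0 FPKM, while the ranges of Alad, Cpox and Urod overlapped at means of 15.2, 15.04 and 14.9 FPKM. Alas2, in the middle of the order in Ctrl, was the lowest member in IR at 3.30 FPKM. In L_IR Alas1 was still the highest, and Fech and Uros were level at 8.89 and 8.88 FPKM.

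The second question was how Ab_IR and L_IR differed from IR alone. In Ab_IR compared with IR, 8 of the 9 genes were higher and Alas1 was lower at an adjusted p under 0.05, beside 39.4% of the 12067 genes tested that were higher and 29.4% that were lower. Of the 8, 7 rose by more than 1 on the log2(FPKM + 1) scale, beside 5.11% of all genes. By the group means all 8 were more than 2-fold higher, and with a pseudocount of 0.1 or with the Nppa split as a term 8 passed, beside 1512 and 1960 of the 12067 genes in either direction. The groups were separate for all 9 genes and for 73.0% of all genes, and the median of the 9 differences was 1.23, beside 0.06 over all genes. The comparisons with IR below and the one with Ctrl above rest on the same 3 IR libraries, so values that mirror each other share them.

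Alas2 rose 6.71-fold by the means in Ab_IR over IR (log2 difference 2.43 ± 0.05, SE, n = 3 and 3, limma adjusted p = 9.41e-08). Alad followed with 4.62-fold (2.14), then Urod (1.56), Uros (1.41), Ppox (1.23), Slc25a38 (1.14) and Cpox (1.02), all on the log2(FPKM + 1) scale with limma adjusted p-values of 6.61e-06 or lower. Fech, at 0.99 ± 0.04 (SE, limma adjusted p = 1.32e-06), stood just short of 1 on that scale, though its means differed 2.21-fold, and it was 1.13 with a pseudocount of 0.1. Without Ab_IR replicate 3 or IR replicate 2 Fech passed 1, at 1.002 and 1.01, and Cpox did not, at 0.998 and 0.99. Alas1 differed by -0.17 ± 0.04 (SE, n = 3 and 3, limma adjusted p = 0.00469), which is 1.13-fold lower by the means.

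In L_IR compared with IR, again 8 genes were higher and Alas1 was lower, beside 40.8% of the 12163 genes tested that were higher and 26.0% that were lower. On the log2(FPKM + 1) scale 3 of the 9, Alad, Alas2 and Urod, rose by more than 1, beside 4.09% of all genes. Uros was 2.16-fold higher by the means, and with a pseudocount of 0.1 it passed as well, which makes 4, beside 1294 of the 12163 genes in either direction. Groups were separate for all 9 genes and 71.2% of all genes, and the median difference was 0.86, beside 0.07 over all genes. On the log2(FPKM + 1) scale the difference was 1.58 ± 0.05 for Alad (SE, n = 3 and 3, limma adjusted p = 6.95e-07), 1.49 ± 0.06 for Alas2 and 1.16 ± 0.04 for Urod. The order of Alad and Alas2 turned with the scale, since by the means Alas2 was 3.36-fold and Alad 3.12-fold higher, and with a pseudocount of 0.1 the differences were 1.72 and 1.63. Uros (0.96), Fech (0.86), Ppox (0.79), Slc25a38 (0.77) and Cpox (0.74) rose less, Uros passing 1 at 1.03 without IR replicate 2. Alas1 differed by -0.42 ± 0.03 (SE, limma adjusted p = 2.39e-05).

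The Nppa split separates the IR libraries from Ab_IR and L_IR and can be taken out of these 2 comparisons only through Ctrl, which lies on both sides of it. With the split as a term in a fit of all 12 libraries, 8 genes remained higher and Alas1 lower in both comparisons. In either direction, 63.6% of all genes passed in Ab_IR against IR and 56.9% in L_IR against IR. In that fit the log2 difference of Alas2 was 2.54 in Ab_IR and 1.61 in L_IR against IR, and 7 genes rose by more than 1 on that scale in L_IR, joined by Fech, Ppox, Slc25a38 and Uros, while 1554 of all 12163 genes passed in either direction. That term rests on Ctrl replicate 1 alone against replicates 2 and 3. IR against Ctrl within the split, without Ctrl replicate 1, gave the same 9 calls, beside 59.8% of all genes called in either direction. Alas2 was at -2.73 and Alad at -2.20 there.

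**Figure D2:**
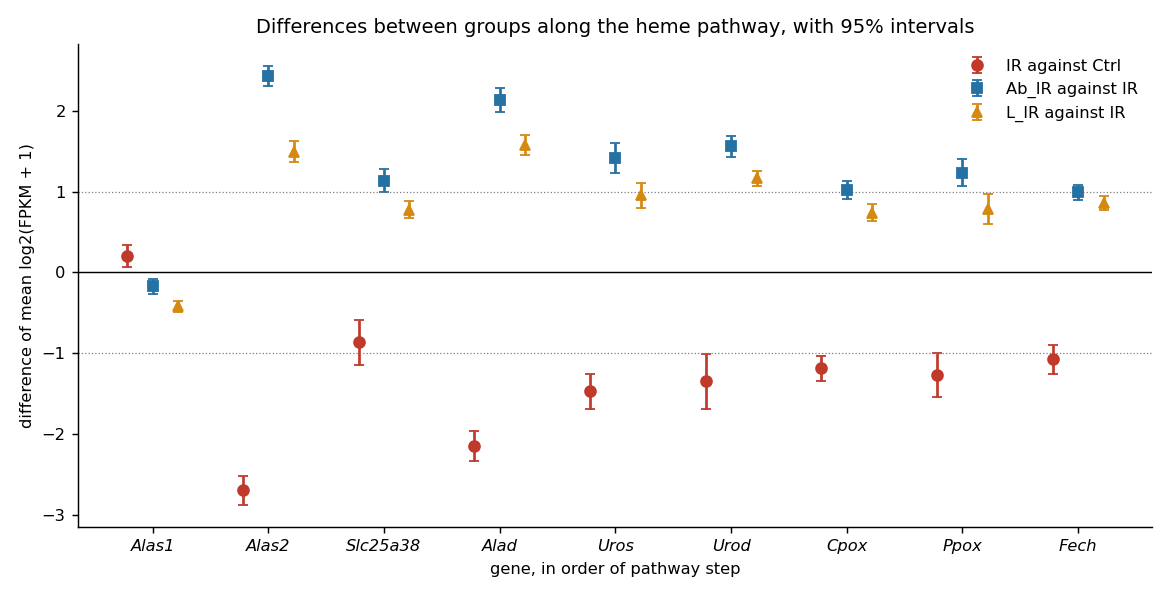
Difference of mean log2(FPKM + 1) (vertical axis) of the 9 genes in pathway order for IR against Ctrl, Ab_IR against IR and L_IR against IR, with 95% limma intervals and dotted lines at 1 and -1. Alas1 alone is higher in IR than in Ctrl (0.20), and Ab_IR lies further from IR than L_IR does for the other 8 genes.

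Compared directly, all 9 genes were higher in Ab_IR than in L_IR at an adjusted p under 0.05, beside 18.2% of the 12194 genes tested, and their groups were separate in that direction, beside 25.2% of all genes. None differed by more than 1 on the log2(FPKM + 1) scale at that adjusted p in limma, beside 0.533% of all genes, although all 9 had an unadjusted p under 0.05, beside 48.1% of all genes. Alas2 differed the most, at 0.94 ± 0.04 (SE, n = 3 and 3, limma adjusted p = 1.98e-05), which is 1.996-fold by the means of 22.1 and 11.1 FPKM. Alad (0.56), Uros (0.46), Ppox (0.45), Urod (0.40), Slc25a38 (0.36), Cpox (0.28) and Alas1 (0.25) followed, with adjusted p-values between 6.04e-04 and 0.00462. Fech differed by 0.13 ± 0.04 (SE, adjusted p = 0.0288), a call that was lost in 5 of the 6 fits without 1 library, with adjusted p-values of 0.0545 to 0.0908. Only the fit without Ab_IR replicate 3 kept it, at 0.0425.

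Against Ctrl, 0 of the 9 genes differed in Ab_IR by the limma adjusted p, beside 2.10% of the 12134 genes tested, and 2 had an unadjusted p under 0.05, beside 20.9% of all genes, namely Alas2 (-0.27, 95% interval -0.43 to -0.10) and Cpox (-0.17, -0.32 to -0.02). Both were under Ctrl in every library and Slc25a38 was above it, so 3 of the 9 were separate from Ctrl, beside 33.5% of all genes. Without Ctrl replicate 1, Alas2 passed with -0.30 at an adjusted p of 0.0299, where 5.98% of all genes passed. Intervals for the other 7 lay within -0.28 and 0.56, the upper ends of Slc25a38 (0.56) and Urod (0.55), the genes with the wide Ctrl spread, reaching furthest.

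In L_IR against Ctrl, 5 of the 9 genes were lower at an adjusted p under 0.05, beside 4.08% of the 12251 genes tested, and 1, Alas2, by more than 1 on the log2(FPKM + 1) scale, beside 0.620%. Groups were separate and lower for 7 genes, beside 18.4% of all genes. Alas2 differed by -1.204 ± 0.07 (SE, n = 3 and 3, limma adjusted p = 1.75e-04), Alad by -0.57, Uros by -0.52, Ppox by -0.48 and Cpox by -0.45, the last 4 with adjusted p-values of 0.00653 to 0.0385. Alas1 (-0.22, adjusted p = 0.0803), Fech (-0.21, 0.129), Urod (-0.19, 0.449) and Slc25a38 (-0.09, 0.655) did not pass. The count moved with single libraries, as did the share of all genes called in either direction, which was 8.84% with all 6 libraries. It was 9 without Ctrl replicate 1, beside 20.6% of all genes. It was 2 without L_IR replicate 1 or 2, beside 3.49% and 3.50%, and 3 without L_IR replicate 3, beside 3.66%, and Alas2 was lower in each of these fits. Hence Alas2 was the member whose level in L_IR was furthest from Ctrl, at 41.3% of the Ctrl mean, while Slc25a38 was at 92.6%.

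Red cell marker genes moved with the pathway. Of the 23 measured, 23 were lower in IR than in Ctrl, 22 of them by more than 1 on the log2(FPKM + 1) scale, with a median difference of -2.50. All 23 were higher in Ab_IR and in L_IR than in IR, with medians of 2.33 and 1.73. Their summed level lay at 4422 to 4949 FPKM in Ctrl and fell to 731 to 742 FPKM in IR. It was 4192 to 4391 FPKM for Ab_IR and 2254 to 2311 FPKM for L_IR, so the groups stood in the same order as for Alas2. None of the 23 was at 0 in all libraries, and their part in the result was not tested. A named member of the list was Car1, a carbonic anhydrase of the red cell lineage, at 545 ± 52.3 FPKM in Ctrl and 36.7 ± 0.902 FPKM in IR (SD, n = 3).

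Per 1000 FPKM of the red cell marker sum, Alas2 came to 5.46 to 5.91 FPKM in Ctrl and to 4.11 to 4.79 FPKM after IR, with 4.98 to 5.26 FPKM for Ab_IR and 4.73 to 5.08 FPKM for L_IR. Relative to that sum the 8.14-fold difference of Alas2 between Ctrl and IR was reduced to a ratio of 1.27 between the group means, though their libraries still did not overlap. The other genes that fell were not set against the sum, and each fell less than Alas2. The mean sum was 4708 FPKM in Ctrl and 736 FPKM in IR, proportionally a larger fall than that of any of these genes. Alad was at 2.57 to 2.75 times Alas2 in Ctrl and at 4.45 to 4.82 times in IR. Fech was at 0.38 to 0.40 times Alas2 in Ctrl and at 1.24 to 1.52 times in IR. Across the 12 libraries, Pearson's r with the log2 marker sum was 0.997 for Alas2, 0.99 for Uros, Alad and Cpox, 0.98 for Ppox, 0.97 for Fech, 0.96 for Urod and 0.93 for Slc25a38. For Alas1 it was -0.46. These values describe 4 groups that lie apart and carry no p.

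**Figure D3:**
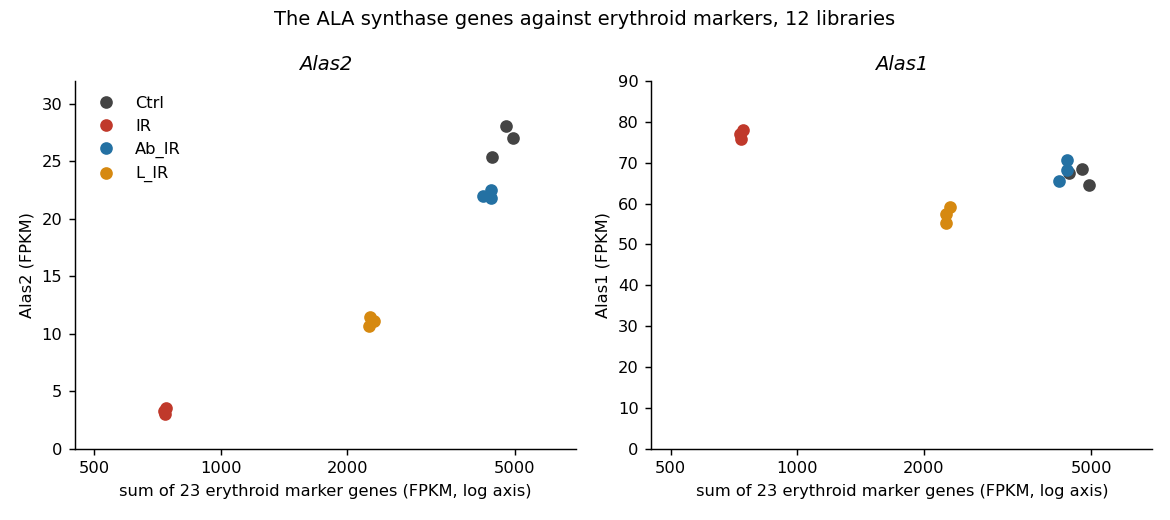
Alas2 (left) and Alas1 (right) in FPKM against the summed FPKM of 23 red cell marker genes (log axis) in the 12 libraries, colored by group. Alas2 rises with the sum from 3.02 FPKM in IR to 28.1 FPKM in Ctrl, and Alas1 is highest in IR, where the sum is lowest.

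The genes most like each of 3 members in pattern over the 12 libraries were named by Pearson's r of log2(FPKM + 1) among genes averaging 10 FPKM or more. For Alas2 they were the globin genes Hbb-bt, Hba-a2 and Hbb-bs together with Car1 and Nr4a1, at r of 0.994 to 0.999. For Fech they were Klf4, Slc14a1, Cd34, Trim10 and Kel, at 0.994 to 0.998. For Alas1 they included Trem1, Cd177, Chil1 and Mxd1, at 0.965 to 0.977. Cd177, a neutrophil surface antigen gene, for instance averaged 53.5 FPKM in Ctrl and 174.9 FPKM in IR, with 59.5 FPKM for Ab_IR and 19.1 FPKM for L_IR, the same order of groups as Alas1. Globin gene copies are near-identical, so their separate values are uncertain.

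Markers of other cells also differed between the groups, and their part in the results was not tested. Of 16 neutrophil and monocyte markers, 9 were higher and 1 lower in IR than in Ctrl, and 12 were lower in L_IR than in IR. Their sum was 11398 to 13287 FPKM in Ctrl and 17121 to 17378 FPKM in IR, and 12392 to 12977 FPKM for Ab_IR and 9242 to 9456 FPKM for L_IR. It was thus highest in IR and lowest in L_IR, as was Alas1. Of 12 megakaryocyte and platelet markers tested, 12 were lower in IR than in Ctrl and 12 higher in Ab_IR than in IR, with sums of 85.3 to 96.6, 19.75 to 22.8, 182 to 187 and 116 to 123 FPKM in the order Ctrl, IR, Ab_IR, L_IR. Mast cell and basophil markers were lower in IR than in Ctrl for 7 of 7 tested. The median difference between IR and Ctrl was -1.59 for these, -1.54 for the HSC list and -1.43 for the megakaryocyte and platelet markers. These 3 medians were further from 0 than that of the 9 heme synthesis genes (-1.27). It was -0.28 for macrophage, 0.29 for neutrophil and monocyte and 0.31 for B and plasma cell markers. Of 10 genes tested from the HSC list, which also holds Flt3 and Cd34 and the progenitor marker Cd48, 8 were lower and 1 higher in IR than in Ctrl. Of 11 macrophage markers tested, 3 were higher and 5 lower. Of 8 B and plasma cell markers tested, 5 were higher and 1 lower, with sums of 657 to 768 FPKM in Ctrl and 1005 to 1028 FPKM in IR. The 10 heart markers were all lower in Ab_IR and L_IR than in IR, with medians of -3.17 and -3.18 on the log2 scale.

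Genes that serve the pathway were then set beside it. Among 14 tested genes for heme transport and partner proteins, 9 were lower in IR than in Ctrl, 6 of them by more than 1 on the log2(FPKM + 1) scale, with a median of -0.56. Fam210b, a mitochondrial protein of heme and iron handling, fell by 1.43, Abcb10, a mitochondrial transporter needed in red cell heme synthesis, by 1.31 and Slc25a37, the mitochondrial iron importer mitoferrin, by 1.09. In Ab_IR 11 of the 14 were higher than in IR, and in L_IR 11 as well, the medians being 0.72 and 0.48.

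The regulators of the red cell program were lower in IR in 8 of 10 cases, with a median of -1.16. Gata1, the factor that binds GATA sites in red cell genes, stood at 37.8, 36.8 and 38.8 FPKM in Ctrl and at 7.04, 6.18 and 6 FPKM in IR. Ab_IR libraries, at 39.4, 42.1 and 40.6 FPKM, were all above Ctrl and L_IR libraries, at 26.1, 25.45 and 25.0 FPKM, all under it. Klf1, the factor that binds CACC boxes in such genes, fell by 2.15 from Ctrl to IR and Gfi1b by 2.40. In Ab_IR 9 of the 10 and in L_IR 7 of the 10 were higher than in IR.

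Genes of iron supply moved in both directions. Of 12 iron uptake and storage genes, 6 were lower and 2 higher in IR than in Ctrl, with a median of -0.26. The members that fell most were Tfr2 (-1.96), which senses transferrin, Steap3 (-1.50), the endosomal ferric reductase, and the transferrin receptor gene Tfrc (-1.02). Their summed FPKM did not follow Alas2, at 1242 to 1441 in Ctrl, 1431 to 1484 in IR, 1617 to 1672 for Ab_IR and 1461 to 1513 for L_IR. Tfrc is also counted among the red cell markers. Of 14 genes of iron-sulfur cluster assembly, 6 were lower, 1 was higher and 7 did not pass, the largest falls being those of Lyrm4 (-0.98) and Isca1 (-0.85), with a median of -0.39.

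Genes that break down or sense heme did not move together. Of 11, 4 were lower and 2 higher in IR than in Ctrl, with a median of -0.13. Blvrb, a biliverdin reductase abundant in red cells, went from 46.3 ± 6.29 FPKM in Ctrl to 7.33 ± 0.530 in IR and back to 52.0 ± 3.99 in Ab_IR (SD, n = 3). Hmox1, the inducible heme oxygenase, went the other way, from 9.38 ± 1.34 FPKM in Ctrl to 18.0 ± 2.16 in IR (limma adjusted p = 0.00245), and it was higher still at 24.3 ± 0.700 for Ab_IR and 29.3 ± 5.39 for L_IR. Its log2 difference from IR was 0.42 in Ab_IR and 0.67 in L_IR, with limma adjusted p-values of 0.00239 and 0.00391. Hmox1 thus differed from the 9 synthesis genes in that neither Ab_IR nor L_IR stood nearer to Ctrl than IR did.

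Genes for heme proteins other than hemoglobin also moved in both directions. Of 17 tested genes for heme-containing enzymes and carriers, 9 were higher and 3 lower in IR than in Ctrl, with a median of 0.19. Cybb, the heme-bearing subunit of the phagocyte oxidase, was 52.9 ± 4.69 FPKM in Ctrl, 95.9 ± 0.763 FPKM in IR, 48.9 ± 1.04 FPKM for Ab_IR and 37.2 ± 0.679 FPKM for L_IR, again highest in IR and lowest in L_IR. Epx, the eosinophil peroxidase, fell instead, from 582 ± 22.6 to 52.5 ± 1.32 FPKM, and stood at 642 ± 32.2 for Ab_IR and 335 ± 3.64 for L_IR (SD, n = 3). In Ab_IR against IR, 10 of the 17 were lower and 6 higher, and in L_IR 7 were lower and 6 higher.

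**Figure D4:**
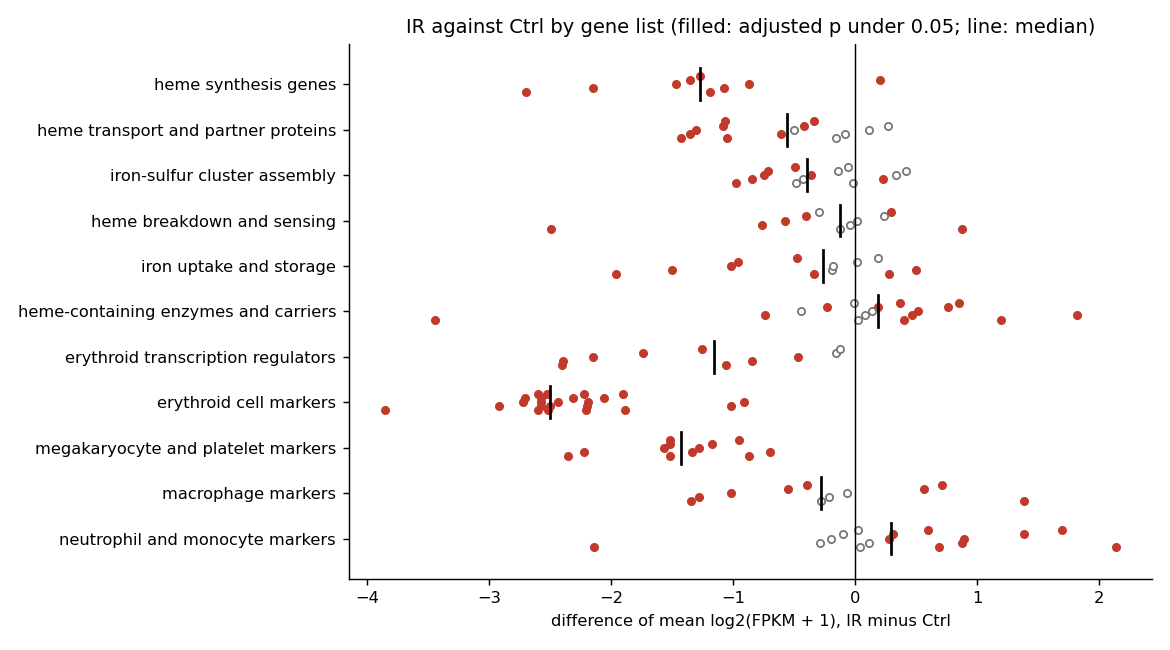
Difference of mean log2(FPKM + 1) between IR and Ctrl (horizontal axis) for each tested gene of 11 lists, filled where the limma adjusted p is under 0.05, with a line at each median. The 9 heme synthesis genes have a median of -1.27. Medians are -2.50 for red cell markers, -1.43 for megakaryocyte and platelet markers, -1.16 for red cell regulators and -0.56 for partner proteins. The other lists shown have medians of -0.39 to 0.29.

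Parts of some members lie under genes on the other strand in the GENCODE annotation. Shared exon bases made up 17.5% of the exon bases of Ppox (with B4galt3), 12.9% of those of Alas2 (with Apex2), 7.53% of those of Alas1 (with an antisense gene) and 3.06% of those of Cpox (with Gpr15). The libraries were strand-specific per the labels, but whether quantification used the strand is not given in the sources used here.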

How the data were processed

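Each deposited file gave gene names and 1 value per gene for a single library, and the unit is not named in it. The values were read as FPKM as the authors deposited them, since they sum to 344338 to 405123 per library and, times GENCODE M21 gene length in kb, to 913838 to 945611. Per the submitters' processing notes, fastp, HISAT2 and StringTie were used with GRCm38/mm10, whereas the study's methods name fastp, to trim adaptors and low-quality bases, and RSEM. Which of these made the deposited values is not given in the sources used here. Low values showed no whole-read steps, so the depth behind each value is unknown and no counting error is given.

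Values were tested as log2(FPKM + 1) with limma 3.58.1 in R 4.3.3 (lmFit, eBayes with trend), 2 groups per fit, keeping genes that reached 1 FPKM in 3 or more fitted libraries. p-values were Benjamini-Hochberg adjusted over all genes tested, with calls at an adjusted p under 0.05, and also with an absolute log2 fold change above 1. On simulated data, 200 genes were given a log2 change of 1.5 and called by the rule that includes the log2 fold change above 1. Of these, 88.5% were recovered in the layout of IR against Ctrl and 97% to 98.5% in 3 other comparisons, with at most 2 false calls. Calls by the adjusted p alone were not counted on simulated data. Members, gene lists and motifs were chosen with earlier results of these data known. From each other list, at most the 4 genes (6 for red cell markers) with the largest change in IR among those passing were eligible to be named, and for Alas2, Alas1 and Fech the 5 genes of highest r. A few genes eligible by this rule are not reported here. Ly6a, Gata2, Hlf, Hoxb5, Fgd5 and Mecom were named after their values were seen. Alternatives were a pseudocount of 0.1, no filter, median scaling, limma without trend, all 12 libraries in 1 fit, the replicate number as a block, a term for the Nppa split (at 10 FPKM), and omission of single libraries. Figures were drawn with matplotlib 3.10.9.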

Additional observations from a re-analysis of the deposited data

How the results depend on the processing

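Each count and each member's difference was recomputed under every alternative. Of 702 recomputed differences of single members, 652 kept their direction and side of the threshold, 26 lost the call, 13 gained it and 11 changed sign. Of 156 recomputed counts, 147 stayed within 1.5 times the reported count. In IR against Ctrl, Ab_IR against IR and L_IR against IR, the calls of the 8 genes other than Alas1 at an adjusted p under 0.05 held in every alternative.

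With the Nppa split as a term, the count past 1 on the log2 scale in L_IR against IR went from 3 to 7. In Ab_IR against Ctrl the count went from 0 to 2 with all 12 libraries in 1 fit (Alas2 and Cpox lower), where 19.3% of all genes passed, to 3 with the Nppa split (Alas2 lower, Slc25a38 and Urod higher), where 58.8% passed, and to between 0 and 1 when single libraries were left out (1, Alas2, without Ctrl replicate 1). In L_IR against Ctrl it went from 5 to between 2 and 9 when single libraries were left out, the share of all genes moving from 8.84% to between 3.49% and 20.6%. The cause was not tested.

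All sign changes were in comparisons with Ctrl, in differences that had not passed. In Ab_IR against Ctrl, Alas1 was -0.00089 under median scaling. With the Nppa split, Alad was 0.10, Uros 0.0433, Ppox 0.13 and Fech 0.0245. When single libraries were left out, Alad ranged from -0.0649 to 0.0459 and Ppox from -0.119 to 0.0525. In L_IR against Ctrl, Slc25a38 was 0.16 and Urod 0.13 with the Nppa split.

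No pairing of the samples by replicate number was seen. Deviations of same-numbered libraries correlated at -0.27 to 0.21 over 18 pairs, and 3 of 12 libraries correlated best with their own number. With 3 libraries per group this check can miss a pairing. With the replicate number as a block, the count in L_IR against Ctrl went from 5 to 3, beside 4.29% of all genes (Cpox and Ppox lost, at adjusted p-values of 0.0517 and 0.115), Alas1 in IR against Ctrl had an adjusted p of 0.0995 and Fech in Ab_IR against L_IR one of 0.104. No other member changed its call under the block. Fech in Ab_IR against L_IR ranged from 0.0219 to 0.121 over all alternatives, and Alas1 in IR against Ctrl from 0.00209 to 0.126. As the depth is unknown, no detection limit can be given.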
